A study of Nothobranchius furzeri with 9 samples.

Results

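The genes KLF9, FKBP5, ZBTB16, CEBPD, ARRDC2, TSC22D3 and NR3C1 are grouped here as genes of the glucocorticoid response. Their transcripts are described at 3 ages of the turquoise killifish, *Nothobranchius furzeri* (*Nfu*), in skeletal muscle. Every entry of the deposited expression table with such a name, or with the name and a final A or B, was taken, which gave 15 of 39396 entries. The names had been selected on the measured adult levels of these same libraries, which peaked relative to young and old muscle, so the adult levels below are a description and were not tested. Only old against young muscle was tested for these entries. That comparison is not independent of the choice either, since the young and old values against which the adult peak was seen enter it.

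Cortisol is the main glucocorticoid of fishes. It enters cells and binds the glucocorticoid receptor, the product of NR3C1, which waits in the cytoplasm in a complex with HSP90 and co-chaperones, then moves to the nucleus and acts on genes with its response elements. In mammals, KLF9, FKBP5, ZBTB16, CEBPD and TSC22D3 are among the genes that the hormone induces in many tissues, and in skeletal muscle the same hormone favours protein breakdown and the release of amino acids. The data used here hold transcripts only, and neither cortisol nor the activity of the receptor is among them.

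Whole skeletal muscle was taken from male *Nfu* of the strain MZM-04/10 at 5 weeks (young), 20 weeks (adult) and 35 weeks (old), with 3 fish and 3 libraries of total RNA per age. No fish received a treatment or carried a transgene, and all were killed at the same morning hour in the fasted state. Ages follow the sample labels, while the methods of the study give wider ranges for adult and old fish. Each value is a normalized count, that is, the reads of an entry divided by 1 factor per library and rounded by the authors. The reads counted on the entries of a library, estimated from the spacing of its values, numbered 7.96 M to 14.23 M, with the lowest number in old replicate 3. The study gives a higher average of reads sequenced per library. The estimate is rough: its fit to the spacing had a correlation of 0.284 in adult replicate 3 and 0.878 in old replicate 3. Muscle was recognised by its markers. The summed normalized counts of 22 muscle marker entries were 518437 to 951557 per library. CKMB, the muscle creatine kinase, alone had 77608 to 120800. The lowest sum belonged to adult replicate 2, before 722370 in old replicate 1. Adult replicate 2 also had the smallest total over all entries (9.4 M) and the highest leukocyte marker sum (1261). KLF9, CEBPD, FKBP5, ZBTB16A, ZBTB16B 826927 and TSC22D3 307238 were highest in this library. ARRDC2, TSC22D3 484773 and NR3C1 482474 peaked in other adult fish, the remaining tested entries in old fish. The part of its composition in these values was not tested. In whole tissue, fewer cells of a type and less RNA per cell cannot be told apart.

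Comparisons were made with limma on log2(normalized count + 1), with the 9 libraries in 1 fit, for 17454 entries whose mean reached 5. An entry was called when its p after Benjamini-Hochberg adjustment did not exceed 0.05 and its values differed at least 2-fold. Of the 15 entries, 13 were tested. The other entries were NR3C1 768235, listed at 0 in every library, and ZBTB16 26768, with a normalized count of at most 2. Some names have more entries than the RefSeq annotation of a newer assembly (NfurGRZ-RIMD1) has symbols: TSC22D3 has 3 against 1, NR3C1 has 4 against 1, and ZBTB16 with ZBTB16A and ZBTB16B has 4 against 2. Such entries may be gene copies or pieces of the same gene, and since reads of several genes or positions were left out by the authors, their single values are uncertain.

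**Figure D1:**
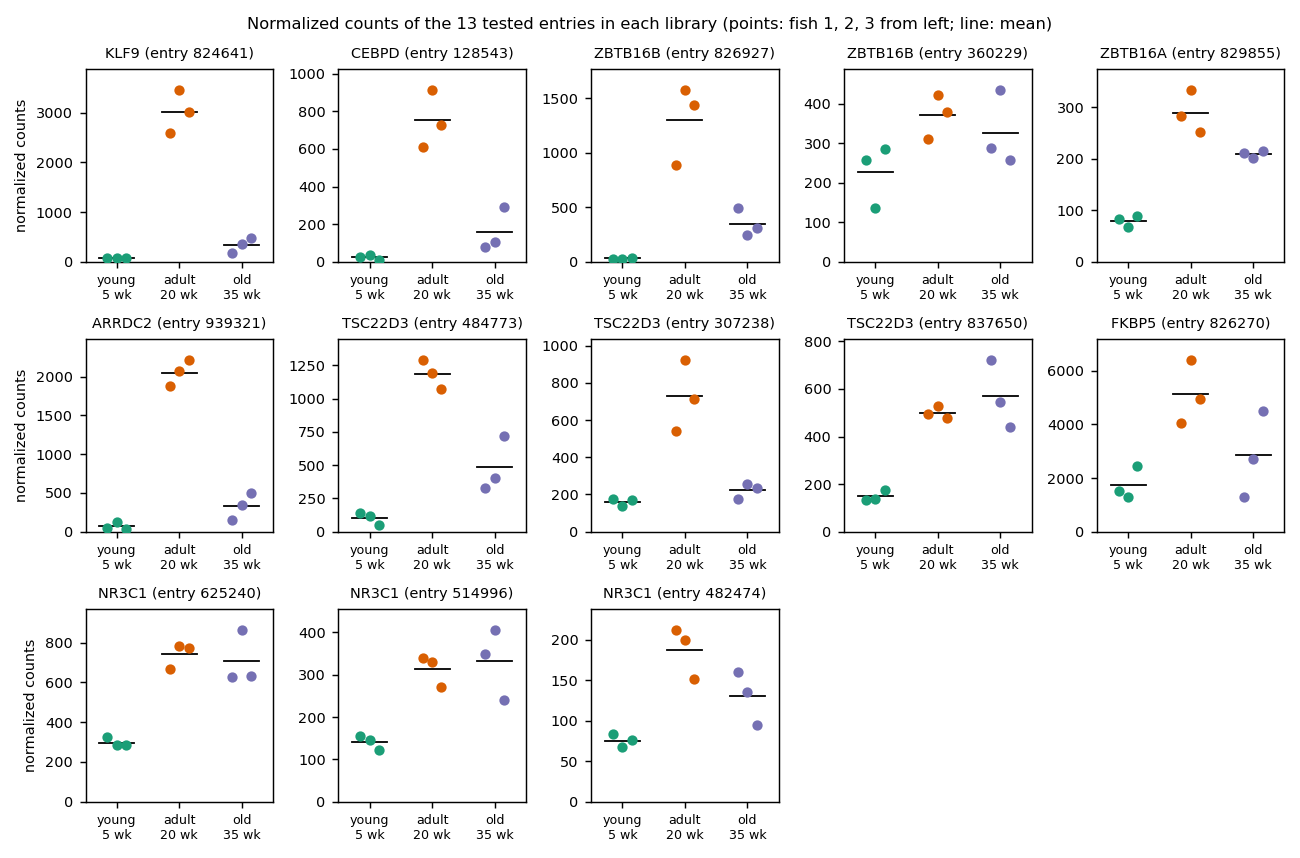
Normalized counts (vertical axis, from 0) of the 13 tested entries in young, adult and old muscle; each point is 1 fish, in the order of replicates 1, 2 and 3, and the line is the mean of 3 fish. KLF9, CEBPD, ARRDC2, ZBTB16A, ZBTB16B 826927, TSC22D3 484773 and TSC22D3 307238 have their 3 adult points above the other 6, while TSC22D3 837650 and 2 of the NR3C1 entries are as high in old as in adult fish.

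Transcripts of the receptor were present at every age. Their mean values were higher in adult and old than in young muscle, without a peak in adults for 2 of the 3 tested entries. The adult part of this is a description. NR3C1 625240, the entry with the highest values, had normalized counts of 324, 284 and 284 in the young fish, 669, 782 and 775 in the adult fish and 626, 864 and 630 in the old fish. All adult and old values of this entry lay above the young ones, and the adult and old values overlapped. NR3C1 514996 had 156, 145 and 122 in the young fish, 340, 330 and 271 in the adult fish and 348, 406 and 240 in the old fish, again with overlapping adult and old groups; the third entry, NR3C1 482474, had 83, 67 and 76 in the young fish, 212, 199 and 152 in the adult fish and 160, 135 and 95 in the old fish, and here the old values were in part below the adult ones.

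Between old and young muscle NR3C1 625240 rose by a log2 fold change of 1.23 (standard error 0.16, adjusted p = 0.000564, limma) and NR3C1 514996 by 1.2 (standard error 0.21, adjusted p = 0.00205, limma). NR3C1 482474 had 0.75 (standard error 0.22, adjusted p = 0.0274, limma) and missed the 2-fold limit. The log2 difference of old from adult muscle was 0.05 for NR3C1 514996, -0.08 for NR3C1 625240 and -0.54 for NR3C1 482474. The first of these changed sign to -0.11 with equal library totals. With the same scaling the old versus young changes of NR3C1 514996 (0.93) and NR3C1 625240 (0.96) missed the 2-fold limit, where the median of all tested entries was -0.298.

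FKBP5 is a co-chaperone of HSP90 that lowers the hormone affinity of the receptor, so that in mammals its induction by the hormone forms a negative feedback. It had normalized counts of 1517, 1300 and 2456 in the young fish, 4066, 6409 and 4965 in the adult fish and 1312, 2730 and 4507 in the old fish. Adult values exceeded all young ones, whereas the old fish spread from the young range up into the adult range, with a highest value 3.44 times the lowest. The adult mean was 2.93 times the young and 1.81 times the old mean. In old versus young muscle the log2 fold change was 0.58 (standard error 0.38, adjusted p = 0.285, limma), which was not called. This change depended on single old fish. Without old replicate 1 it was 1.05 (adjusted p = 0.0366, limma), the only alternative in which FKBP5 was called. Without old replicate 3 it was 0.16. Over all alternatives the adjusted p by limma ranged from 0.0366 to 0.756.

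Among the transcription factors KLF9 showed the widest contrast between adult and old fish. This zinc finger factor of the Krüppel-like family had 83, 70 and 78 in the young fish, 2591, 3459 and 3024 in the adult fish and 170, 363 and 485 in the old fish, means of 77 ± 6.56, 3025 ± 434 and 339 ± 159 (SD, n = 3). The adult mean was 39.3 times the young mean and 8.91 times the old mean. Of the 17454 tested entries 7 (0.0401%) had an adult minus young log2 difference at least as large, counting KLF9 itself and ZBTB16B 826927. KLF9 was chosen for its adult peak, so nothing is read from this share. Old fish lay above young ones, with 170 as the lowest old and 83 as the highest young value, and the log2 fold change was 2.00 (standard error 0.31, adjusted p = 0.0011, limma).

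CEBPD, a leucine zipper factor that takes part in the acute phase response and in early adipocyte differentiation, had 27, 36 and 10 in the young fish, 612, 914 and 730 in the adult fish and 81, 103 and 289 in the old fish. The 3 ages did not overlap, and the adult mean was 30.9 times the young and 4.77 times the old mean. In old versus young fish CEBPD rose by a log2 fold change of 2.59 (standard error 0.49, adjusted p = 0.00325, limma).

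ZBTB16, also known as PLZF, is a zinc finger repressor with a BTB domain, and its entries differed widely. ZBTB16B 826927 had 27, 28 and 35 in the young fish, 889, 1575 and 1435 in the adult fish and 490, 243 and 306 in the old fish, so that the adult mean was 43.3 times the young mean. Of the 13 entries it had the largest change in old versus young muscle, 3.43 on the log2 scale (standard error 0.27, adjusted p = 6.37e-05, limma). The second entry of the same name, ZBTB16B 360229, had 258, 136 and 285 in the young fish, 310, 422 and 380 in the adult fish and 287, 435 and 258 in the old fish, with an overlap of old with both other ages, and it was not called (log2 fold change 0.56, standard error 0.28, adjusted p = 0.161, limma). ZBTB16A had 84, 68 and 88 in the young fish, 283, 334 and 252 in the adult fish and 212, 202 and 215 in the old fish. The old values of ZBTB16A were the most alike of all entries and lay between those of the other ages, 1.39 log2 above young muscle (standard error 0.17, adjusted p = 0.000381, limma).

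Within each fish the relation of the ZBTB16B entries turned round with age. The log2 difference of entry 360229 minus entry 826927 was 2.81 ± 0.51 in young, -1.78 ± 0.22 in adult and -0.06 ± 0.82 in old fish (SD, n = 3). Entry 826927 thus went from the lower to the higher value of the pair between young and adult muscle, and in old fish the order differed from fish to fish.

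ARRDC2 encodes an arrestin domain protein; members of this family act as adaptors of ubiquitin ligases at membranes. It had normalized counts of 46, 122 and 36 in the young fish, 1875, 2067 and 2216 in the adult fish and 146, 351 and 505 in the old fish. The 3 ages did not overlap, and the adult fish were the most uniform, with a highest value 1.18 times the lowest, against 3.46 times in old fish. The adult mean was 30.2 times the young and 6.15 times the old mean. In old versus young muscle ARRDC2 rose by a log2 fold change of 2.31 (standard error 0.46, adjusted p = 0.0044, limma).

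TSC22D3, known as GILZ, is a leucine zipper protein that in mammals carries part of the anti-inflammatory action of glucocorticoids, and its 3 entries followed 3 courses. TSC22D3 484773 had 137, 116 and 53 in the young fish, 1290, 1190 and 1070 in the adult fish and 331, 405 and 716 in the old fish, with intermediate values in old fish. TSC22D3 307238 had 177, 137 and 171 in the young fish, 542, 923 and 715 in the adult fish and 175, 254 and 237 in the old fish, with old values that overlapped the young ones. TSC22D3 837650 had 133, 138 and 176 in the young fish, 496, 530 and 477 in the adult fish and 722, 544 and 439 in the old fish, with old values on both sides of the adult ones.

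In old versus young muscle TSC22D3 484773 rose by a log2 fold change of 2.26 (standard error 0.34, adjusted p = 0.00108, limma) and TSC22D3 837650 by 1.91 (standard error 0.19, adjusted p = 0.000144, limma). TSC22D3 307238 was not called (0.45, standard error 0.22, adjusted p = 0.151, limma). The log2 difference of entry 307238 minus entry 837650 within each fish was 0.12 ± 0.25 in young, 0.50 ± 0.34 in adult and -1.34 ± 0.61 in old fish (SD, n = 3), and the old fish did not overlap the others in it. The log2 difference of old from adult muscle of TSC22D3 837650 was 0.15 and turned to -0.01 with equal library totals.

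**Figure D2:**
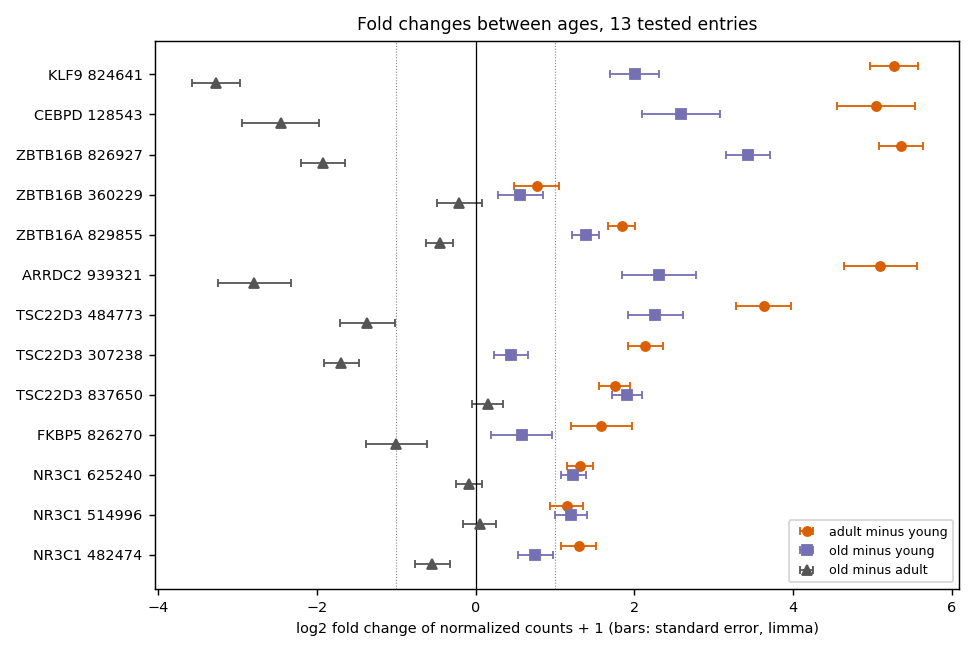
Log2 fold changes of normalized counts + 1 (horizontal axis) with limma standard errors for the 13 tested entries; circles are adult minus young, squares old minus young and triangles old minus adult, and dotted lines mark the 2-fold limit. All circles and squares lie above 0, from 0.77 to 5.36 and from 0.45 to 3.43, and the triangles run from -3.27 to 0.15.

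Taken over the 13 tested entries, the median log2 difference of adult from young muscle was 1.84 and that of old from adult muscle was -1.0, beside medians of 0.00 and -0.01 for all tested entries. These values follow from the choice of the names. In adults 7 of the 13 entries had each value above the other 6 libraries, against 5.78% of all tested entries, and 11 had their highest mean in adults, against 31.4%; nothing is read from either share. By this definition the former 7 had old values below every adult value, and in the other 6 the adult and old values overlapped.

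For old versus young muscle, whose young and old values also took part in the choice of names, 9 of 13 entries were called and all 9 were higher, beside 7.91% of all tested entries called higher and 9.84% called lower. The background moved to 4.57% higher and 15% lower with equal library totals, with which 7 member entries were called higher. The median log2 fold change of the 13 was 1.39, against -0.03 for all tested entries, and in 10 of them each old value exceeded each young value, against 19.6% of all entries. The entries not called were FKBP5, TSC22D3 307238, ZBTB16B 360229 and NR3C1 482474. Of the 13 entries, 6 are in the study's own list of its most significant genes. Without these, which was tried after seeing the data, 4 of 7 were called higher.

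Entries differed in how much of the adult excess over young muscle was left in old fish. This share is the old minus young difference in percent of the adult minus young difference on the log2 scale. Its divisor holds the adult values for which the names were chosen, so the shares are a description only. The share was 20.9% in TSC22D3 307238, 36.6% in FKBP5, 38.0% in KLF9, 45.3% in ARRDC2 and 51.3% in CEBPD. Higher shares were found in TSC22D3 484773 (62.4%), ZBTB16B 826927 (64.1%) and ZBTB16A (75.3%). ZBTB16B 360229 had 72.9% and NR3C1 482474 had 58.0%. The NR3C1 entries 625240 and 514996 had 93.7% and 104.6%, and TSC22D3 837650 had 108.7%. Some of these shares moved widely with 1 library or with the scaling. FKBP5 ran from 10.2% without old replicate 3 to 66.6% without old replicate 1 and had 20.6% with equal library totals. TSC22D3 307238 had 8.45% and ZBTB16B 360229 had 43.5% with equal library totals, and the latter had 43.6% without old replicate 2.

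The 3 old fish were not alike. KLF9, CEBPD, ARRDC2, FKBP5 and TSC22D3 484773 had their lowest old value in replicate 1 and their highest in replicate 3, an order seen in 14.4% of all tested entries. Relative to the young mean, old replicate 1 was at 1.14 log2 in KLF9 and old replicate 3 at 2.64; in CEBPD these values were 1.87 and 3.69, and in ARRDC2 1.30 and 3.08. FKBP5 ran from -0.37 to 1.41. The opposite order was found in NR3C1 482474 (1.08 in replicate 1 and 0.34 in replicate 3) and TSC22D3 837650 (2.28 and 1.56). Old replicate 3 was also the library with the fewest counted reads by the estimate, and the part of depth in this order was not tested.

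**Figure D3:**
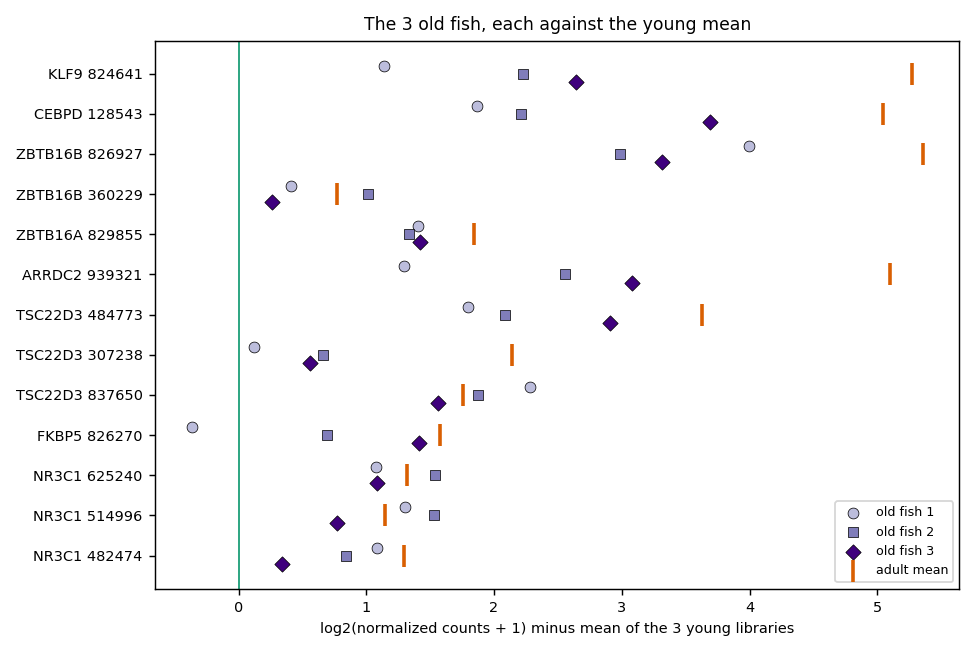
Log2(normalized count + 1) of each of the 3 old fish minus the mean of the 3 young libraries (horizontal axis; 0 is the young mean) for the 13 tested entries, with the adult mean as a vertical mark. In KLF9 and ARRDC2 the 3 old fish lie well short of the adult mean and spread from 1.14 to 2.64 and from 1.30 to 3.08, and in TSC22D3 837650 old fish lie on both sides of it.

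Beside the receptor itself, a list of 35 symbols of genes that handle the hormone, hold the receptor or act with it was matched to 48 entries, of which 43 were tested. In adult versus young muscle 8 were called higher (18.6%) and 7 lower (16.3%), beside 10.7% and 11.4% of all tested entries; with equal library totals the background was 8.13% and 13.3%. For old versus young muscle the numbers were 5 higher and 5 lower (11.6% each), beside 7.91% and 9.84% of all tested entries, or 3 and 6 with equal library totals. Leaving out young replicate 2 lowered them to 4 higher and 2 lower. Between old and adult muscle 1 was higher and 1 lower (2.33% each), beside 0.825% and 1.26%. The medians of the 43 log2 fold changes were 0.09, 0.19 and 0.04.

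Of the enzymes of cortisol metabolism, HSD11B2, which inactivates cortisol, was low and had normalized counts of 9, 6 and 8 in the young fish, 30, 18 and 25 in the adult fish and 20, 30 and 17 in the old fish. It rose by 1.53 log2 in adult (standard error 0.34, adjusted p = 0.00524) and by 1.41 in old versus young muscle (standard error 0.34, adjusted p = 0.0109, limma). HSD11B1L, a relative of the reactivating enzyme, stayed between 13 and 30 in all libraries and was not called. NR3C2, the mineralocorticoid receptor, which binds cortisol too, rose in 2 of its 3 entries. NR3C2 188391 increased by 1.92 log2 in adult (adjusted p = 0.0013) and 1.89 in old versus young muscle (adjusted p = 0.00213), and NR3C2 474847 by 1.16 (adjusted p = 0.0125) and 1.47 (adjusted p = 0.0052, all by limma), while NR3C2 630488 was at 2 to 17 normalized counts and had adjusted p of 0.0878 and 0.0972 (limma).

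The chaperones that hold the receptor did not move together. HSP90AA1.1, an HSP90 that zebrafish muscle needs for myosin folding, had 13308, 17280 and 14887 normalized counts in the young fish, 4328, 2064 and 4954 in the adult fish and 6566, 8577 and 6220 in the old fish. The 3 ages did not overlap, with the lowest values in adults. It fell by 2.09 log2 in adult (standard error 0.29, adjusted p = 0.000384) and by 1.1 log2 in old versus young muscle (standard error 0.29, adjusted p = 0.0167, limma). HSP90AB1, the constitutive form, was not called, with log2 fold changes of 0.09 and -0.05 and values of 5387 to 9386. FKBP4, the co-chaperone that takes the place of FKBP5 when the hormone binds, was not called either and had 752 ± 55.4 in young, 697 ± 73.0 in adult and 831 ± 121 in old fish (SD, n = 3).

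PTGES3, the p23 co-chaperone that stabilises the HSP90 complex, fell by 1.81 log2 in adult (standard error 0.25, adjusted p = 0.000426) and by 1.44 log2 in old versus young muscle (standard error 0.25, adjusted p = 0.00235, limma). HSPA4 454270, of the HSP110 family of exchange factors, had 338, 420 and 320 in the young fish, 62, 54 and 47 in the adult fish and 140, 151 and 225 in the old fish and was the only entry of the list called higher in old than in adult fish (1.62 log2, standard error 0.21, adjusted p = 0.00418, limma). Its second entry, HSPA4 482505 (named after its values were seen), with 1266 to 1983 normalized counts, was not called in any comparison.

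Coactivator entries, a group formed after the values were seen, were those of NCOA1 to NCOA3, CREBBP, EP300, MED1, MED14 and PPARGC1A. Of the 15 tested, 4 were called higher and 0 lower in adult versus young muscle, beside 10.7% and 11.4% of all tested entries. The 11 not called included all entries of NCOA2, CREBBP, EP300, MED1 and MED14. NCOA1 rose by 1.37 log2 in adult (adjusted p = 0.000306) and 1.23 in old versus young muscle (adjusted p = 0.000946), and NCOA3 558056 by 1.37 (adjusted p = 0.00107) and 1.06 (adjusted p = 0.00591, all by limma). PPARGC1A, a coactivator that drives mitochondrial biogenesis, had 174, 308 and 403 in the young fish, 1087, 1067 and 1710 in the adult fish and 466, 528 and 529 in the old fish; like KLF9 it was higher in adults than in either other age (2.17 log2 versus young, adjusted p = 0.000252; old versus adult -1.31, adjusted p = 0.0331, limma). SMARCA4, the ATPase of the SWI/SNF remodelling complex, fell in entry 419346 by 2.06 log2 in adult (adjusted p = 0.000212) and by 1.28 log2 in old versus young muscle (adjusted p = 0.00451, limma). SMARCA4 329412, called lower in both comparisons, had 10, 27 and 24 in the young fish and at most 1 in every adult and old fish.

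A further list held 47 symbols of genes that glucocorticoids induce in mammals, among them genes of muscle protein breakdown, insulin signalling and growth arrest, and 64 entries matched it. Of the 47 tested entries 28 were called higher in adult versus young muscle (59.6%) and 4 lower (8.51%), with a median log2 fold change of 1.43. All tested entries had shares of 10.7% higher and 11.4% lower in this comparison. In old versus young muscle 16 were higher (34%) and 0 lower, beside 7.91% and 9.84% of all tested entries. At an unadjusted p under 0.05 by limma and any fold 3 entries were lower in old versus young muscle. Between old and adult muscle 7 were lower (14.9%) and 1 higher (2.13%), beside 1.26% and 0.825% of all tested entries. With equal library totals the numbers called higher and lower were 25 and 4, 12 and 2, and 0 and 7 in the same order of comparisons. The background was then 8.13% higher and 13.3% lower, 4.57% and 15%, and 0.481% and 1.25%. The list was written with earlier results of these data known and with the study's most significant genes in view. Its shares are therefore not independent of these data. Of the 47 entries 5 are among those most significant genes. Without them, tried after seeing the data, 23 of 42 were higher in adult and 13 of 42 in old versus young muscle. In old versus adult muscle 4 were lower. Leaving them out does not undo the choice of the list. The count in old versus adult muscle changed with the libraries in the fit. It was 3 when adult replicate 2 was left out, 4 for adult replicate 3 and 5 for young replicate 2 or old replicate 2, both directions together. The share called over all tested entries was 2.09% with all libraries. It was 0.516% without adult replicate 2, 0.52% without adult replicate 3, 1.59% without young replicate 2 and 1.8% without old replicate 2.

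**Figure D4:**
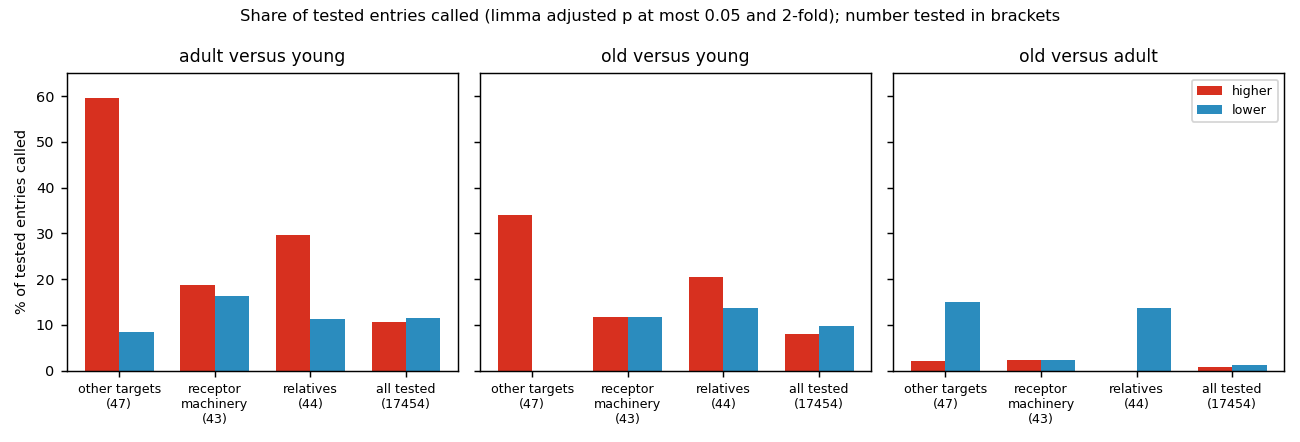
Percent of tested entries called higher or lower (vertical axis, from 0) in the 3 comparisons, for 47 entries of other glucocorticoid targets, 43 of the receptor machinery, 44 relatives of the named genes and all 17454 tested entries. Other targets were called higher in 59.6% in adult and 34% in old versus young muscle, beside 10.7% and 7.91% of all entries. The lists were written with earlier results of these data known.

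Within this list FOXO1A, SESN1 and MKNK2B rose in adults and fell again in old fish. FOXO1A, a factor that switches on atrophy genes, had 45, 48 and 30 in the young fish, 399, 410 and 273 in the adult fish and 121, 111 and 181 in the old fish (3.11 log2 in adult versus young, adjusted p = 3.25e-05; -1.39 in old versus adult, adjusted p = 0.0207, limma). SESN1, an inhibitor of mTORC1, rose by 2.60 log2 (adjusted p = 3.77e-05) and then fell by 1.47 log2 (adjusted p = 0.00846, limma). MKNK2B, a kinase of the initiation factor eIF4E, rose by 2.42 log2 (adjusted p = 9.48e-05) and fell by 1.69 log2 (adjusted p = 0.00841, limma).

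CDKN1A, the cell cycle inhibitor p21, had the deepest fall after adulthood among these targets. Its entry 316473 had 185, 497 and 475 normalized counts in the young fish, 1926, 1493 and 2063 in the adult fish and 154, 324 and 326 in the old fish. Old and young values overlapped, and the log2 fold changes were 2.36 in adult versus young (standard error 0.38, adjusted p = 0.000909), -2.83 in old versus adult (standard error 0.38, adjusted p = 0.00433) and -0.47 in old versus young muscle (adjusted p = 0.375, limma).

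Other entries kept their rise or went further. IRS2, an adaptor of the insulin receptor, rose by 2.22 log2 in adult (adjusted p = 8.43e-05) and 1.68 in old versus young muscle (adjusted p = 0.000577, limma). NFIL3 619878, a repressor of the clock output, had 43, 34 and 32 in the young fish, 352, 195 and 164 in the adult fish and 580, 310 and 456 in the old fish (3.56 log2 in old versus young, adjusted p = 6.37e-05, limma). BCL6 860137, a repressor with a BTB domain like ZBTB16, had 16, 23 and 22 in the young fish, 75, 53 and 44 in the adult fish and 117, 127 and 117 in the old fish and was the entry called higher in old than in adult muscle (1.09 log2, standard error 0.24, adjusted p = 0.0388, limma); with equal library totals this call was lost. TXNIP 140248, an inhibitor of thioredoxin and glucose uptake, rose by 1.51 log2 in adult (adjusted p = 0.00094) and 1.82 in old versus young muscle (adjusted p = 0.000582, limma).

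The 4 entries lower in adults were PIK3R1 394900, PER2 and the FOXO3A entries 270277 and 587813. PIK3R1 394900 fell by 1.21 log2 (adjusted p = 0.000137), whereas PIK3R1 431174, named after its values were seen, rose by 1.78 log2 (adjusted p = 0.000224, limma). The entry FOXO3 762302, also named after its values were seen, rose by 1.87 log2 (adjusted p = 0.000153, limma) from a mean of 917 to 3307, against 61 to 17.7 in FOXO3A 270277. PER2 of the circadian clock fell by 1.83 log2 in adults (adjusted p = 0.000799, limma) and had 645, 538 and 692 in the young fish, 153, 211 and 162 in the adult fish and 182, 370 and 446 in the old fish.

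A few classical targets are added, chosen after their values had been seen, both called and not called. FBXO32, the atrophy ligase atrogin-1, had 4, 2 and 1 normalized counts in the young fish, 275, 2357 and 536 in the adult fish and 541, 46 and 69 in the old fish, so that old fish differed by up to 11.8-fold. DUSP1, a phosphatase of MAP kinases, had 82, 54 and 56 in the young fish, 795, 431 and 505 in the adult fish and 756, 208 and 280 in the old fish. PER1B rose by 1.80 log2 (adjusted p = 0.00696), SGK1 by 1.2 (adjusted p = 0.00143) and KLF15 895815 by 1.55 in adult versus young muscle (adjusted p = 0.000195, limma). Not called in this comparison were PDK4 (0.46, adjusted p = 0.229), TAT (0.69, adjusted p = 0.525), ANGPTL4 678276 (-0.77, adjusted p = 0.0113) and the GADD45AA entries (-0.27 and -0.53, adjusted p = 0.591 and 0.49, limma). The other entry of ANGPTL4, 957277, was called higher (1.35, adjusted p = 0.0417, limma), with a mean of 246 in young and 596 in adult fish.

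Relatives from the families of the named genes were compared as well, with 44 tested entries. The lists overlap: 7 relatives, the entries of CEBPB, TXNIP, TXNIPA, NR3C2 and FKBP4, also belong to the lists above and account for 5 of the relatives called higher in adults. In adult versus young muscle 13 were called higher (29.5%) and 5 lower (11.4%), beside 10.7% and 11.4% of all tested entries. In old versus young muscle the numbers were 9 and 6 (20.5% and 13.6%), beside 7.91% and 9.84%. With equal library totals they were 6 and 7, beside 4.57% and 15% of all tested entries. Between old and adult muscle 0 were higher and 6 lower (13.6%), beside 0.825% and 1.26%, with 5 higher by limma at an unadjusted p under 0.05 and any fold. The number 6 was 2 when adult replicate 2 or 3 was left out and 3 when young replicate 2 or 3 was. Of all tested entries 0.361% and 0.354% were called lower without adult replicate 2 and 3. Without young replicate 2 and 3 these shares were 0.965% and 0.862%. ARRDC3A, of the same arrestin domain family as ARRDC2, had 144, 193 and 113 in the young fish, 1407, 2247 and 1697 in the adult fish and 443, 334 and 234 in the old fish (3.57 log2 in adult versus young, adjusted p = 2.42e-05; -2.42 in old versus adult, adjusted p = 0.00186, limma). KLF11B rose by 3.00 log2 in adults (adjusted p = 4.7e-05) and fell by 1.73 log2 in old fish (adjusted p = 0.00904, limma), and KLF13 rose by 1.87 log2 (adjusted p = 0.000352) with no call in old versus adult muscle. CEBPB, a partner of CEBPD, had 40, 27 and 19 in the young fish, 398, 578 and 288 in the adult fish and 166, 53 and 230 in the old fish (3.84 log2 in adult versus young, adjusted p = 0.000204, limma). ARRDC3A, KLF11B and CEBPB are the 3 relatives among the study's most significant genes. Without them, tried after seeing the data, 10 of 41 were higher and 5 lower in adult versus young muscle. In old versus young muscle 6 were then higher and 6 lower, and in old versus adult muscle 4 were lower.

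Of 13 tested FKBP relatives 3 were called lower and 1 higher in adult versus young muscle, beside 11.4% and 10.7% of all tested entries. The other 9 were not called, among them the second entry of FKBP9. FKBP9 402637, a prolyl isomerase of the endoplasmic reticulum, had 254, 249 and 233 in the young fish, 25, 16 and 47 in the adult fish and 36, 76 and 64 in the old fish, a fall by 3.15 log2 in adults (adjusted p = 0.00014, limma). FKBP10A and FKBP10B, which act in collagen folding, fell by 1.63 (adjusted p = 0.000695) and 1.03 log2 (adjusted p = 0.01, limma), while FKBP11, named after its values were seen, was called higher in adults (1.54 log2, adjusted p = 0.0215, limma). TXNIPA, an arrestin domain relative, rose by 2.72 log2 in adults (adjusted p = 0.000178) and fell by 1.49 log2 in old fish (adjusted p = 0.0368, limma), and ARRDC3 135361 rose by 2.90 (adjusted p = 0.00411) and fell by 2.95 log2 (adjusted p = 0.0299, limma). DDIT3, a stress factor of the C/EBP family, rose by 1.53 (adjusted p = 0.000657) and fell by 1.1 log2 (adjusted p = 0.0313, limma). FKBP14 fell by 1.98 log2 in old versus young muscle (adjusted p = 0.00197, limma), and ZBTB7C, at 2 to 20 normalized counts, fell by 1.63 in adult (adjusted p = 0.0205) and 2.00 log2 in old versus young muscle (adjusted p = 0.0097, limma).

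Outside the named genes, the entries whose log2 values over the 9 libraries followed the mean z-score of the 13 entries most closely were PREX2, SLC16A12, entry 605031 (named for a zebrafish clone), CSRNP1B, RASGEF1B, ZNF800A, NFKBIAB, C9ORF3, IP6K2 and SSC5D, with Pearson correlations of 0.981 to 0.987. The 9 libraries fall into 3 ages, so these correlations mostly reflect the age means and carry no test. NFKBIAB, an inhibitor of NF-kappaB that glucocorticoids induce in mammals, had 181, 153 and 185 in the young fish, 332, 432 and 360 in the adult fish and 287, 281 and 303 in the old fish. Most like KLF9 alone were CD109, entry 605031, MCF2L2, SI:CH73-115D3.4 and KLF6, with correlations of 0.978 to 0.990. Among the named genes themselves the correlation with KLF9 was 0.971 for ARRDC2, 0.967 for TSC22D3 307238 and 0.959 for CEBPD, and it was 0.648 for ZBTB16B 360229.

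Other transcripts and cell type markers also differed between the ages. Summed normalized counts of 26 immediate-early gene entries were 1769 to 2751 in young, 6687 to 9196 in adult and 3112 to 3647 in old libraries. Much of the adult sum came from CSRNP1B (mean 3311) and the NR4A1 entries (means 601 and 1540). In adult versus young muscle 9 of 19 tested entries were called higher and 0 lower, beside 10.7% and 11.4% of all tested entries. FOS 762379, EGR1 546744 and EGR3 were not called, and NR4A3 was highest in young fish (means 1143, 760 and 162). The sums of 19 clock entries were 2623 to 3039, 3300 to 3471 and 2506 to 3375, where old fish overlapped both other ages. These sums hide opposite changes. In adult versus young muscle 7 of 18 tested clock entries were called higher (38.9%) and 1 lower (5.56%), beside the same background. Between old and adult muscle 2 were lower and 0 higher, beside 1.26% and 0.825%. These were NR1D2 544560 and CRY1 565713, named after their values were seen. Leukocyte marker entries (10) summed to 263 to 397, 491 to 1261 and 444 to 484, with adult replicate 2 highest. Of 9 tested ones 3 were called higher in adult versus young muscle and 0 lower, beside 10.7% and 11.4% of all tested entries. The 4 adipocyte marker entries summed to 850 to 1191, 1875 to 2988 and 1316 to 1378. Nearly all of this came from the entries of LPL, a lipase that muscle also makes, while CIDEC reached at most 6 and LEPA was at 0. Fibroblast marker entries (6) summed to 91422 to 115680 in young, 31965 to 67744 in adult and 25840 to 67915 in old fish. Nearly all of this came from COL1A1A, COL1A1B and COL1A2. Of these collagen entries 2 were called lower in adult and 3 in old versus young muscle, beside 11.4% and 9.84% of all tested entries. DCN, LUM and PDGFRA were not called, and PDGFRA had means of 484 in young, 699 in adult and 621 in old fish. Endothelial marker entries (6) summed to 421 to 518, 602 to 841 and 499 to 695. Of these 1, KDR, was called higher in adult versus young muscle, beside 10.7% of all tested entries. Epidermis marker entries summed to 560 to 653, 667 to 827 and 684 to 1326. In old versus young muscle 4 of 8 tested ones were called higher, beside 7.91% of all tested entries. All 4 were entries of DSP or TP63, while CDH1 (-0.58 log2), EPCAM (-0.67 log2), CLDN1 and DSP 831708 were not called. Schwann cell markers gave 2875 to 5301, 3235 to 3948 and 3565 to 4367, and erythrocyte markers 789 to 994, 639 to 698 and 651 to 817. The part of all these transcripts in the values of the glucocorticoid targets was not tested.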

How the data were processed

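Total RNA of whole skeletal muscle from 9 male *Nfu* was sequenced as stranded paired-end libraries. The authors trimmed reads with Trimmomatic 0.33, aligned them to the genome version NotFur1 with STAR 2.4.2a and counted them per gene with featureCounts 1.4.5-p1, leaving out reads of several genes or positions. The signal deposited by the authors is the count of an entry divided by 1 DESeq size factor per library and rounded; rounding leaves the return to whole reads ambiguous, so count models were not used. Size factors estimated from the spacing of values were 0.692 to 1.25.

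Values were analysed as log2(value + 1) with limma 3.58.1 in R 4.3.3 (1 mean per age, no covariate, eBayes with trend) for 17454 entries whose mean reached 5, and adjusted by Benjamini-Hochberg over all of them. The call limits of 0.05 and 1 log2 are those of the study. P-values rest on the spread between fish of an age (3 per age), pooled over the ages and moderated across entries. The spread was not equal: the median log2 SD of the tested member entries was 0.20 in young, 0.21 in adult and 0.40 in old fish. Over all tested entries it was 0.26, 0.31 and 0.38. The fit was tested beforehand on simulated old versus young values with known changes. The same dispersion was used for all entries and ages, so the wider spread of old fish was not simulated. Changes were placed only in entries whose mean lay well above the limit of 5. The fit called 100% of the 4-fold and 47% of the 2-fold changes, with 8 false calls among 17519 entries. A true 2-fold change lies on the fold limit, so many such changes miss it whatever the spread. These shares do not carry over to old fish as measured here or to entries at low values.

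The members and the 3 other lists were chosen with earlier results of these data known. Entries named from these lists are the 4 called with the smallest p in each comparison and direction, all entries of HSD11B, NR3C2, HSP90 and FKBP4 names, the 10 and 5 entries most like the mean profile and KLF9, and those said to be added later. Alternatives were the scaling, the pseudocount, the filter, the libraries in the fit, robust moderation, a replicate block and the omission of each library. Gene positions and sequences were not used here, and 0 columns of the table were left out.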

Additional observations from a re-analysis of the deposited data

How the results depend on the processing

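The direction of all 13 member entries in old versus young muscle was the same in all 10 alternative settings and in the 9 fits without 1 library. Of these 247 values 244 kept their call (adjusted p and fold together). The exceptions were NR3C1 514996 (0.925) and NR3C1 625240 (0.956) with equal library totals and FKBP5 without old replicate 1 (1.05). The fold change of an entry cannot move with the filter, robust moderation, the replicate block or only the 6 libraries of both ages. Nor can it move when a library of the third age is left out. In these alternatives only the adjusted p could differ, so their unchanged direction and fold show nothing. NR3C1 482474, not called for its fold, had an adjusted p by limma of 0.0274, with 0.00832 to 0.189 over the alternatives. The number of member entries called was 9, with 7 to 9 over the settings and 9 to 10 over the fits without 1 library; leaving out the entries among the most significant genes listed by the study, added after seeing the data, it was 4. The adult minus young median of the members moved between 1.73 and 1.94. Each of the 494 untested adult values moved by less than the SD of its entry between fish of an age, pooled over the ages on the log2 scale, in some cases by more than its standard error; 6 of them, all old minus adult values of NR3C1 514996 or TSC22D3 837650, changed sign.

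For other targets in old versus adult muscle 8 entries were called, 5 with no filter, 4 with only the 6 libraries of both ages, 5 without the entries listed by the study and 3 to 11 over the fits without 1 library. Of all tested entries 2.09% were called in this comparison, 0.898% with no filter and 0.43% with only the 6 libraries. Over the fits without 1 library this share ran from 0.516% to 3.05%. Relatives gave 6 in this comparison, 2 with only the 6 libraries and 2 to 7 without 1 library; with a mean of at least 50 they gave 11 in adult versus young and 9 in old versus young muscle, against 18 and 15. Receptor machinery in old versus young muscle gave 10, with a mean of at least 50 it gave 6, and without 1 library 6 to 12; in old versus adult muscle it gave 2, and 1 to 2 without 1 library. A mean of at least 50 leaves fewer entries to count; for the rest the cause was not tested.

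Replicate numbers did not pair the fish: same-numbered libraries of different ages had correlations of their deviations from the age means of -0.079 to 0.106. With the replicate number as a block 9 member entries were called, as without it; no call of a member entry changed. Equal library totals shifted the median of all entries in old versus young muscle from -0.031 to -0.298. Old replicate 3, with an estimated 7.96 M counted reads, limits the precision of entries at low values most.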
